A study of Mus musculus with 2 samples.

Results

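The genes described here encode the respiratory chain and ATP synthase, the machinery of oxidative phosphorylation in the inner mitochondrial membrane. Members were taken by gene symbol, namely those starting with Nduf, Uqcr, Atp5 or mt-, the subunit genes Cox4i, Cox5, Cox6a to Cox6c, Cox7 and Cox8 (without the muscle form of Cox6a), and Sdha to Sdhd and Cycs. The rule found 105 of 27933 symbols, 92 encoded in the nucleus and 13 in the mitochondrial genome, and no expression value was used to choose them. By protein complex there were 36 nuclear and 7 mitochondrial genes of complex I, 4 nuclear genes of complex II, 8 nuclear and 1 mitochondrial gene of complex III, 18 nuclear and 3 mitochondrial genes of complex IV and 15 nuclear and 2 mitochondrial genes of complex V (ATP synthase). Cycs, which encodes cytochrome c, stood alone. A remainder of 10 nuclear symbols matched the rule without being a subunit of these groups in this grouping, among them the complex I assembly factors Ndufaf1 to Ndufaf7.

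Complexes I and II pass electrons from NADH and succinate to ubiquinone, complex III passes them on to cytochrome c, and complex IV passes them to oxygen. Complexes I, III and IV pump protons, and ATP synthase uses the gradient to make ATP. Complexes I, III, IV and V are built from subunits of both genomes, whereas complex II is encoded in the nucleus alone. Naive lymphocytes rely largely on this pathway, and activated lymphocytes enlarge both their mitochondria and their glycolysis.

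Immune cells of lymph nodes were profiled in 2 groups of mice aged 6-8 weeks, which all carried a heart transplant. The allogeneic group had Balb/c recipients of C57BL/6 hearts, and the syngeneic group had Balb/c recipients of Balb/c hearts. Each group had 1 single-cell library, and the sources used here do not say how many mice went into it. With 1 library per group there was no test of any difference. Intervals are exact 95% intervals of UMI counts (unique molecular identifiers, 1 per captured mRNA), cover counting error only and have no replicate check.

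The allogeneic library held 3500 barcodes with 8415043 UMIs and the syngeneic library 7967 barcodes with 46486632 UMIs. The smallest UMI total of any barcode was 150 in the former and 3447 in the latter, so the barcode lists do not reach equally low. Requiring 200 detected genes or more, with mitochondrial UMIs capped at 10%, kept 2106 allogeneic cells (60.2%, median 3147 UMIs) and 7957 syngeneic cells (99.9%, median 4917 UMIs). That filter acts on the mitochondrial members themselves. The libraries shared 66 barcode sequences, 26 of them among the kept allogeneic cells. Cells were assigned to types by marker genes, with no UMI of the opposing lineage allowed. The gates of a single named type with at least 100 cells in each library were CD4 T cells (216 allogeneic, 656 syngeneic), CD8 T cells (311 and 1179) and B cells (220 and 393). These carry the comparisons between libraries. Regulatory T cells (68 and 80) are described by level only. T cells that met none of the 3 T cell subtypes (492 and 1105) were not compared as a type, and their nuclear shares were 1.83% and 2.17%, again lower in the allogeneic library. Levels are given as CPM, UMIs scaled to the same total in every class. The B cell markers Cd79a and Ms4a1 were at 2638 and 564 CPM in allogeneic B cells and at 2347 and 1332 CPM in syngeneic B cells. Their value of 0 in the T cell gates is set by the gates. A further 628 allogeneic and 4482 syngeneic cells met no gate.

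Blood cell RNA was unequal between the libraries. All 4 haemoglobin genes present in the gene list had UMIs in every one of these gates, and summed to 0.362% to 0.470% of UMIs in allogeneic gates and 0.00362% to 0.00538% in syngeneic gates. Neutrophil genes summed to 0.110% to 0.134% in the allogeneic gates, where all 7 were seen, and to at most 0.000812% in the syngeneic gates, where Ltf was at 0. Macrophage genes (C1qa, C1qb, C1qc, Csf1r and Lyz2) summed to 366 CPM in allogeneic and 36.5 CPM in syngeneic CD4 T cells, with C1qa, C1qb and C1qc at 0 in the former and nearly all of the sum from Lyz2 (363 and 35.3 CPM). The macrophage sums were 40.9 and 14.9 CPM in CD8 T cells and, in the other direction, 63.3 and 80.4 CPM in B cells. Stromal and endothelial markers (Col1a1, Col3a1, Dcn, Cdh5) were all at 0 in the allogeneic gates. The source of these UMIs was not tested. Subtracting the profile of allogeneic barcodes with fewer than 200 genes left the median nuclear ratio below 0 and the mitochondrial sum above 0 in each gate. The amount was set by haemoglobin, at 0.563% of UMIs in CD4 T, 0.689% in CD8 T and 0.730% in B cells. So small a subtraction could move the ratios little and cannot check their direction.

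The sequences shown are those of the mitochondrial mRNA with the largest ratio, whose reads can overlap a neighbour, and, as examples of the motif search, the promoters of a nuclear gene that was lower and of one that was not. No ratio was tested against sequence. The mt-Atp8 coding sequence lies at chrM:7766-7969 (GRCm38, plus strand) and shares its last 43 of 204 bases with mt-Atp6, the gene that follows it. Those 43 bases (7927 to 7969) are in capitals, and a read that falls in them belongs to both genes.
mt-Atp8: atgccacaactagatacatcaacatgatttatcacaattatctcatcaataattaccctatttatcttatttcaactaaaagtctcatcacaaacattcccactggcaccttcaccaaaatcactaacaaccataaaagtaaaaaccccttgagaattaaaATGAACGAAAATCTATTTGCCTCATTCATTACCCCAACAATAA
For nuclear members, RefSeq promoters (GRCm38.p6, 250 bases before to 50 after the gene start) were matched to 77 of 92 genes. The 4 motifs searched on both strands were that of nuclear respiratory factor 1 (NRF1), ETS (CCGGAAG), YY1 (AAGATGGCG) and ERR (TCAAGGTCA). Matches of different motifs shared no bases in these promoters. Capitals mark the matches in the promoters of Ndufs8 (chr19:3912725-3913024, minus strand), with 1 ETS match on the opposite strand, and Sdha (chr13:74350191-74350490, minus strand), with 3 NRF1 matches. Both are printed in the direction of transcription.
Ndufs8: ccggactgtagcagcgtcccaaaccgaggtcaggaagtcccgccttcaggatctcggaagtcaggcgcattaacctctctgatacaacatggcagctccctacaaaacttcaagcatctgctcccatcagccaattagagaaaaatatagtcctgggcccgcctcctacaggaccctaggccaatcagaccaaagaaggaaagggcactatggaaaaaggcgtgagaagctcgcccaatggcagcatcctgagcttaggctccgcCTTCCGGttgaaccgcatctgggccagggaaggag
Sdha: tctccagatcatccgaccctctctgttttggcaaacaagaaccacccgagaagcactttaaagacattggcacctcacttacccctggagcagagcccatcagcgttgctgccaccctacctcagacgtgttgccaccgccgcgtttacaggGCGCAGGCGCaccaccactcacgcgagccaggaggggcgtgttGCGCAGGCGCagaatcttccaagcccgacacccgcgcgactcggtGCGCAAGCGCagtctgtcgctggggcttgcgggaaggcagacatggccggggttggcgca
The NRF1 motif was in 23.4% of the matched member promoters and in 4.78% of all 27025 promoters of this length. The ETS motif was in 20.8% and 9.12%, YY1 in 9.09% and 1.49%, and ERR in 2.60% and 0.407%. At least one of NRF1 and ETS was in 39.0% of member promoters against 12.97% of all. The promoters of Atp5d and Ndufb2, which were lower like Ndufs8 in the results that follow, held no match in this window.

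Over all cells of each gate, the summed UMIs of nuclear and mitochondrial members took opposite sides between the libraries. The mitochondrial side depended on depth, as given below. Nuclear members made up 1.77% of UMIs in allogeneic and 2.14% in syngeneic CD4 T cells. For CD8 T cells the shares were 1.74% and 2.05%. In B cells the values were 1.57% and 2.12%, the widest of the 3 gaps. As log2 ratios of summed UMIs, allogeneic over syngeneic, these were -0.28 in CD4 T, -0.23 in CD8 T and -0.43 in B cells. Mitochondrial members instead made up 2.53% of UMIs in allogeneic against 2.26% in syngeneic CD4 T cells (log2 0.16, interval 0.14 to 0.18). The shares were 2.51% and 2.31% in CD8 T cells (0.12, 0.10 to 0.13) and 2.82% and 2.73% in B cells (0.05, 0.02 to 0.07). Member by member, the median mitochondrial log2 ratio was 0.17 in CD4 T, 0.17 in CD8 T and -0.03 in B cells, and 3 of 12, 4 of 13 and 7 of 12 lay below the median gene, so in B cells the excess was in the sum only. The number of mitochondrial UMIs per nuclear member UMI was therefore 1.43 and 1.06 (CD4 T), 1.44 and 1.13 (CD8 T) and 1.79 and 1.29 (B), higher in the allogeneic library each time.

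The mitochondrial excess was small and moved with depth, whereas the nuclear deficit kept its direction but was also smaller at syngeneic depth. With only allogeneic cells as deep as the shallowest syngeneic barcode (85 CD4 T, 233 CD8 T and 14 B cells), the mitochondrial log2 ratio was 0.03 in CD4 T cells, with an interval that included 0, and 0.06 in CD8 T and 0.09 in B cells. The median nuclear member stayed between -0.33 and -0.21 in CD4 T, between -0.23 and -0.16 in CD8 T and between -0.47 and -0.34 in B cells over all 12 alternatives. In each gate the value nearest 0 was the one at syngeneic depth (-0.21, -0.16 and -0.34). The counting intervals of the middle member there were -0.64 to 0.19, -0.42 to 0.09 and -1.36 to 0.51, and each included 0. This depth, called syngeneic or matched depth, is a lower limit only, and the UMI totals of the cells were not otherwise matched. Cell by cell, the nuclear share had a median of 1.76% in allogeneic CD4 T cells (5th to 95th percentile 1.29% to 2.22%) and 2.10% in syngeneic ones (1.69% to 2.63%). The ranges overlapped in every gate. In B cells the medians were 1.53% and 2.05%, and the median allogeneic cell lay below the 5th percentile of syngeneic cells, 1.60%.

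**Figure D1:**
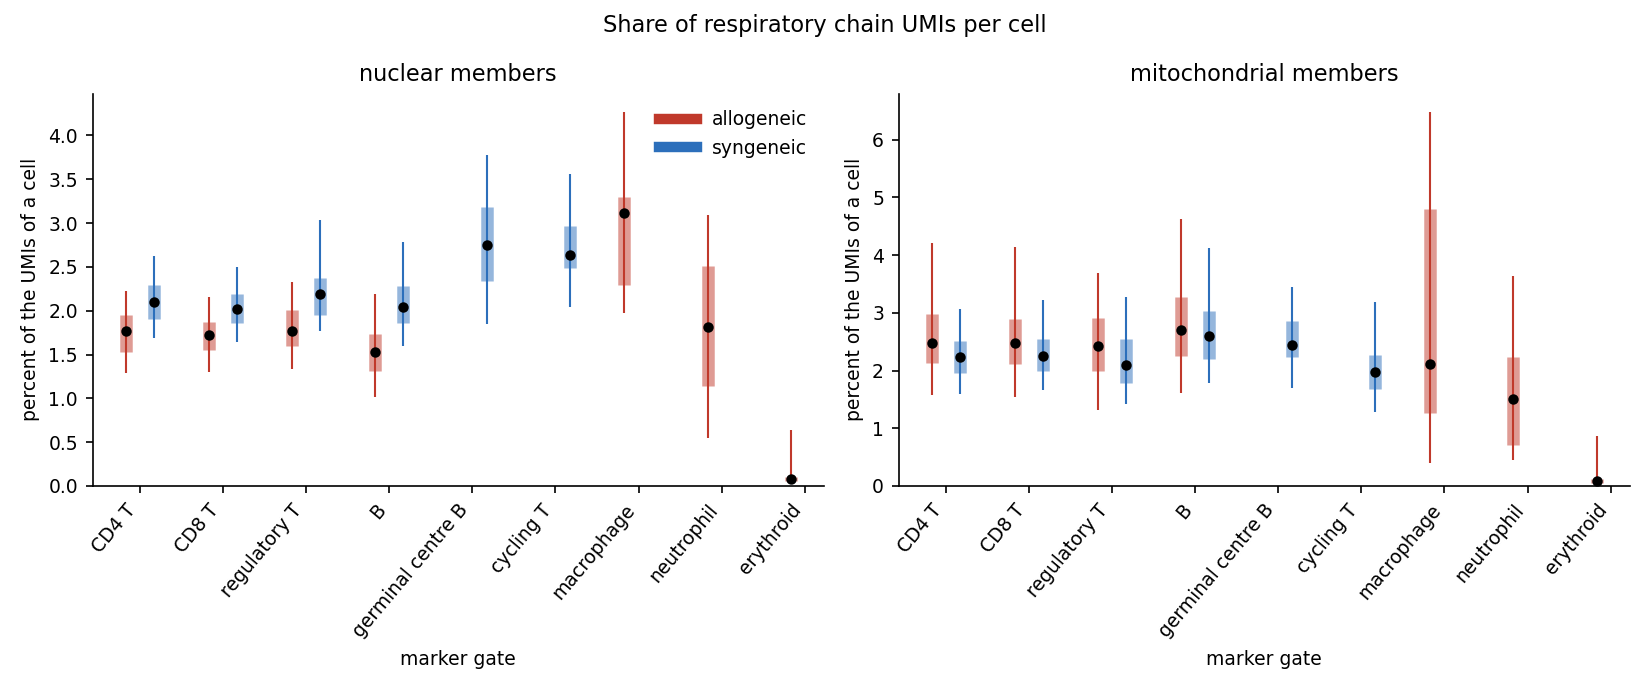
Percent of the UMIs of each cell from nuclear (left) and mitochondrial (right) members by marker gate and library; dots are medians over cells, thick bars quartiles and thin lines the 5th to 95th percentiles, for gates with at least 20 cells. Allogeneic nuclear medians lie below syngeneic ones in the 4 gates drawn for both libraries (1.53% against 2.05% in B cells), and mitochondrial medians lie slightly above.

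Among all genes that reached 50 UMIs when the libraries were added, the median log2 ratio was 0.07 in CD4 T, 0.02 in CD8 T and 0.01 in B cells. The median measured nuclear member was at -0.26, -0.19 and -0.44. Below the median gene lay 69 of 80 measured nuclear members in CD4 T, 69 of 84 in CD8 T and 74 of 79 in B cells. A gene is counted as lower or higher when it differed at least 1.5-fold from the median gene of its class with an interval that left out that gene's ratio. By that rule 13 of 80 nuclear members were lower in CD4 T cells (background 9.37% of 6359 genes), 4 of 84 in CD8 T cells (background 8.50% of 7799) and 25 of 79 in B cells (background 14.0% of 5062). No nuclear member was counted as higher in these gates, where 12.4%, 12.1% and 15.5% of all genes were. The CD8 T count is a smaller share than its background. Short genes, as most members are, had larger backgrounds, which are given below with mRNA length. At syngeneic depth the counts were 7 of 79 (background 6.93%), 3 of 84 (background 8.06%) and 6 of 79 (background 3.52%). The CD4 T share was near its background there, and the CD8 T share was below it. Of the 92 nuclear members, 84 reached 50 UMIs in at least 1 gate and 8 in none. Of the 79 measured in all 3 gates, 59 had ratios below 0 in each and 4 above 0 in each (Ndufa6, Ndufs3, Sdha and Sdhd). The 3 gates come from the same libraries and are no independent repeats. No share of all genes with the same sign or call in all 3 gates is given here, so such counts have no background.

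**Figure D2:**
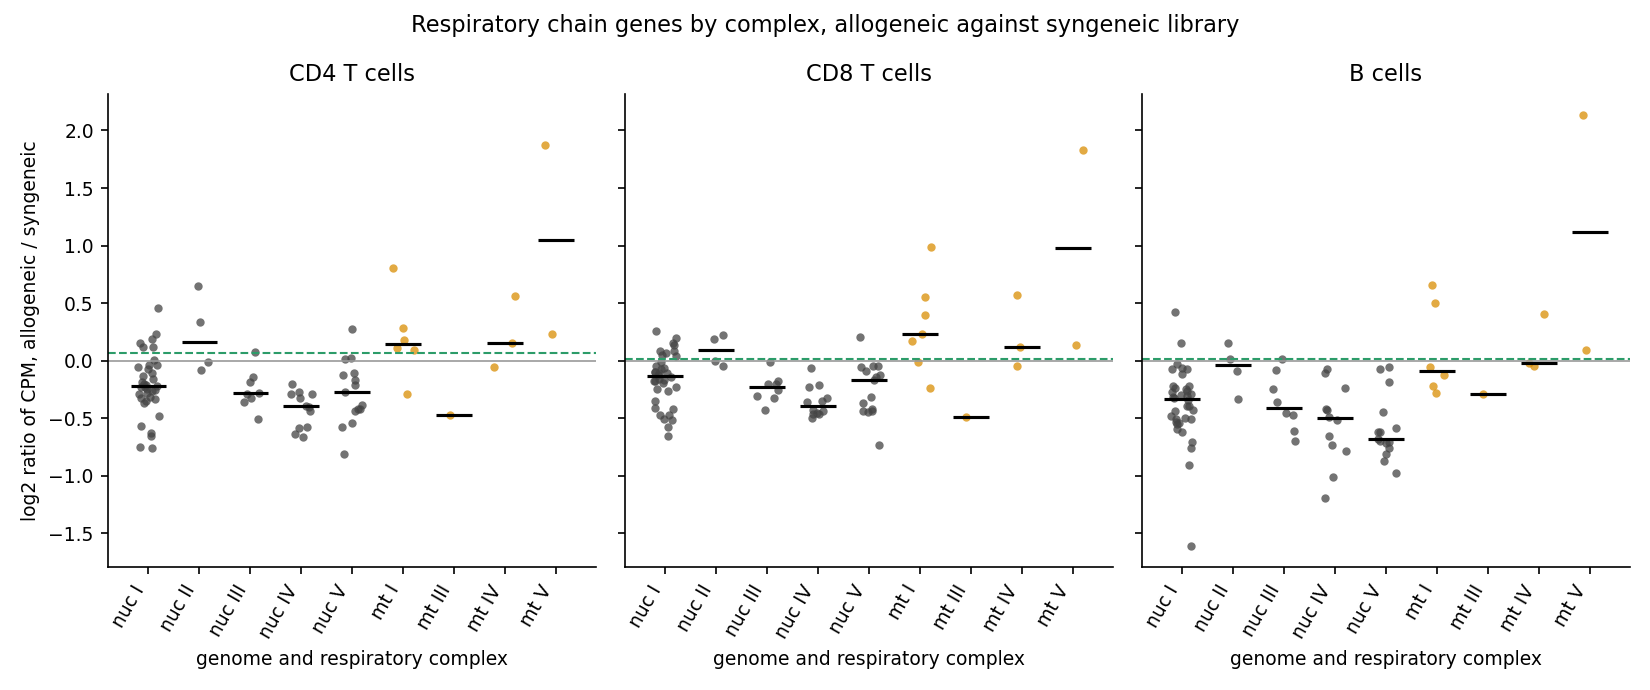
Log2 ratio of CPM, allogeneic over syngeneic, of each measured member (1 dot per gene) by genome (nuc, nuclear; mt, mitochondrial) and complex in 3 gates; black bars are medians of the dots and the green dashed line is the median of all genes. Nuclear dots of complexes I, III, IV and V lie mostly below the line, complex II dots lie around it, and the highest dot in each panel is mt-Atp8 (1.87, 1.83 and 2.13).

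Complex I is the entry point for electrons from NADH. Its 36 nuclear members summed to 5548 CPM in allogeneic and 6397 CPM in syngeneic CD4 T cells (log2 -0.21), and the corresponding log2 ratios were -0.15 in CD8 T and -0.30 in B cells. Counted as lower were 5, 2 and 6 of the 36, shares near or below those of all genes in CD8 T and B cells (backgrounds 9.37%, 8.50% and 14.0%). Ndufs8, an iron-sulphur subunit of the matrix arm, was one of 3 nuclear members counted as lower in all 3 gates. It had 59.7 against 101 CPM in CD4 T cells, 59.9 against 89.4 CPM in CD8 T cells and 92.1 against 173 CPM in B cells, allogeneic before syngeneic. Ndufb2, an accessory subunit of the membrane arm, was the next. Its levels were 71.6 and 113 CPM in CD4 T, 73.1 and 115 CPM in CD8 T and 42.2 and 129 CPM in B cells, the last from 22 and 232 UMIs (log2 -1.61, interval -2.31 to -0.97), the lowest ratio of any nuclear member there. In regulatory T cells the allogeneic library was again the lower one for both, with 70.9 and 150 CPM for Ndufs8 and 75.3 and 125 CPM for Ndufb2.

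In GRCm38, Ndufs8 lies at chr19:3908863-3912774 on the minus strand and Ndufb2 at chr6:39592574-39603382 on the plus strand. Those calls rest on few UMIs. At syngeneic depth or with stricter gates neither was called in CD4 T cells (at depth Ndufs8 -0.46, -1.06 to 0.09, and Ndufb2 -0.57, -1.16 to -0.03). In CD8 T cells Ndufs8 lay at the edge of the rule: its ratio was -0.58 both in all cells and at depth, yet its call was lost at depth, with a 5% mitochondrial limit and with wider gates. The CD8 T call of Ndufb2 was lost with each cell weighted equally (-0.53). Calls for Ndufa13, an accessory subunit, and Ndufa3 in CD4 T cells held in all 11 alternatives run. Ndufa13 had 196 and 304 CPM in CD4 T cells (log2 -0.63) and 165 and 280 CPM in B cells (-0.76), where it was at -0.25 (-1.10 to 0.49) and no longer called at syngeneic depth. Other complex I genes went the other way. Ndufs3, a core subunit, had 127 and 117 CPM in CD4 T, 118 and 107 CPM in CD8 T and 146 and 131 CPM in B cells, and each interval included 0. Ndufa6, an accessory subunit, had 451 against 337 CPM in B cells (log2 0.42, 0.20 to 0.64), the highest nuclear ratio in that gate, but was at -0.10 among the 14 B cells of matched depth. Ndufs1, the largest iron-sulphur subunit, had 53.0 and 38.7 CPM in CD4 T cells, with an interval of -0.10 to 0.98.

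Complex II, succinate dehydrogenase, is also an enzyme of the tricarboxylic acid cycle. Of its 4 members, 2 lay below the median gene in each gate. Its 4 members summed to 483 and 422 CPM in CD4 T cells (log2 0.19, 0.02 to 0.36), 421 and 394 CPM in CD8 T cells (0.09, -0.04 to 0.23) and 416 and 427 CPM in B cells (-0.04, -0.26 to 0.18). None was counted as lower or higher. Sdha, the flavoprotein that oxidises succinate, had 155 and 123 CPM in CD4 T cells (log2 0.33, 0.02 to 0.63), 132 and 116 CPM in CD8 T and 142 and 140 CPM in B cells. Sdhd, a membrane anchor, had 106 and 67.7 CPM in CD4 T cells (0.65, 0.26 to 1.02). Sdhb, the iron-sulphur subunit, had 146 CPM in both libraries of CD8 T cells.

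Complex III joins ubiquinol to cytochrome c. Its 8 nuclear members had summed log2 ratios of -0.28 in CD4 T, -0.26 in CD8 T and -0.39 in B cells, with 0, 0 and 2 counted as lower (backgrounds 9.37%, 8.50% and 14.0%). Uqcrh, the hinge protein that faces cytochrome c, had 582 and 728 CPM in CD4 T cells and 617 and 762 CPM in CD8 T cells. In B cells it had 495 and 680 CPM (log2 -0.46, -0.66 to -0.26). Uqcrq and Uqcrb, small subunits, were the pair counted as lower in B cells, with 155 against 252 CPM and 144 against 220 CPM. Neither call held among the 14 B cells of matched depth. Cycs had 118 and 201 CPM in CD4 T cells (log2 -0.77, -1.10 to -0.44), 151 and 191 CPM in CD8 T cells (-0.34) and 119 and 187 CPM in B cells (-0.65). It was counted as lower in CD4 T and B cells, and in those 14 B cells was at 0.01 (-0.95 to 0.84).

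Complex IV, cytochrome c oxidase, had the lowest log2 ratios of summed nuclear UMIs of the 5 complexes in both T cell gates. The log2 ratios were -0.39 in CD4 T and -0.34 in CD8 T cells, and -0.49 in B cells, and all 12 measured members lay below the median gene in each gate. Counted as lower were 4, 0 and 5 of the 12, where 9.37%, 8.50% and 14.0% of all genes were. Ndufa4, once assigned to complex I and now placed with complex IV, had 329 and 512 CPM in CD4 T cells (-0.64), 350 and 480 CPM in CD8 T cells (-0.46) and 221 and 504 CPM in B cells (-1.19, -1.49 to -0.91). Its calls in CD4 T and B cells held in all 11 alternatives. Cox6b1, which faces the intermembrane space, had 240 and 484 CPM in B cells (-1.01), but -0.36 at matched depth. Cox7b had 178 and 282 CPM in CD4 T cells (-0.66), and its call there held in all 11 alternatives. Cox4i1, a subunit that all cells use, had smaller ratios of -0.20, -0.21 and -0.24.

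The forms of complex IV subunits typical of heart, muscle, lung or testis had few or no UMIs. Over all kept cells Cox4i2 had 1 allogeneic and 37 syngeneic UMIs beside 5818 and 44061 for Cox4i1. Cox7a1 had 4 and 97, Cox6b2 had 12 and 116 and Cox8b 1 and 1. No UMI of Cox7b2 or Cox8c was counted in either library, which allows up to 0.391 CPM in allogeneic and 0.0646 CPM in syngeneic cells (3 counts of the total). With Atp5s and Ndufa4l2, these 6 genes made up the 8 that reached 50 UMIs in no gate.

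Of complexes I to V, ATP synthase had the lowest log2 ratio of summed nuclear UMIs in B cells. Its 15 nuclear members summed to 4197 and 6165 CPM there (log2 -0.55, -0.62 to -0.49). In CD4 T and CD8 T cells the log2 ratios were -0.27 and -0.23. All 15 lay below the median gene in B cells, and 11 were counted as lower (background 14.0%). In CD4 T cells 3 were (background 9.37%), and in CD8 T cells 1 was (background 8.50%). Atp5d (chr10:80138632-80145818, plus strand), the delta subunit of the central stalk, was lower in all 3 gates: 170 and 299 CPM in CD4 T (-0.82, -1.09 to -0.55), 180 and 299 CPM in CD8 T (-0.73, -0.93 to -0.54) and 194 and 341 CPM in B cells (-0.82, -1.13 to -0.51). Its lowest ratio in any gate and alternative was -0.89 and its highest -0.55. Regulatory T cells, no independent repeat, had 230 CPM of Atp5d in the allogeneic and 334 CPM in the syngeneic library. Atp5e, the epsilon subunit of the same stalk, had 424 and 633 CPM in CD4 T and 391 and 716 CPM in B cells. Atp5b, the catalytic beta subunit, split by cell type, with 343 and 565 CPM in B cells (-0.72) and 479 and 497 CPM in CD8 T cells (-0.05). Atp5l, subunit g of the membrane part, hardly differed in any gate, with log2 ratios of -0.11, -0.05 and -0.07. Of the 11 members lower in B cells, only Atp5g1 was still called among the 14 B cells of matched depth. A smaller share of all genes was called lower there (background 3.52%).

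The membrane ring of ATP synthase is made of identical c subunits, which 3 nuclear genes encode with different import peptides. Of their UMIs in B cells, Atp5g1 contributed 19.6% (15.8% to 23.9%) in the allogeneic and 27.9% (25.9% to 30.0%) in the syngeneic library. The share of Atp5g3 was 31.3% (26.7% to 36.1%) and 23.6% (21.7% to 25.6%), and neither pair of intervals overlapped. These are shares of 1 sum: in CPM, Atp5g3 itself was at 236 and 245 and Atp5g1 at 148 and 290, so the larger share of Atp5g3 came with no higher level. Atp5g2 stood at 49.1% and 48.5%. In CD8 T cells the Atp5g3 share was again above, at 31.4% and 26.5%, while the intervals of Atp5g1 overlapped (27.6% and 28.7%). In CD4 T cells the intervals of both genes overlapped, at 30.8% and 26.4% for Atp5g3 and 25.9% and 29.3% for Atp5g1.

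The 13 mitochondrial mRNAs come from long transcripts of the 2 strands of 1 small genome, yet their ratios between libraries were far apart. mt-Atp8, a small subunit of ATP synthase, was the only member of either genome counted as higher in all 3 gates. It had 141 CPM in allogeneic and 38.4 CPM in syngeneic CD4 T cells (106 and 123 UMIs, log2 1.87, 1.48 to 2.26). In CD8 T cells it had 154 and 43.5 CPM (1.83, 1.56 to 2.09), and in B cells 199.5 and 45.4 CPM (2.13, 1.70 to 2.57). Regulatory T cells had 128 and 50.6 CPM. All 11 alternatives kept the calls, with ratios from 1.69 to 2.29. mt-Atp6, which shares the 43 bases shown in capitals with mt-Atp8, had log2 ratios of 0.23, 0.13 and 0.10. The sources used here do not say how the counting treated reads of that overlap, and its part in the ratio was not tested.

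mt-Co1, the catalytic subunit of complex IV, had 5174 and 3515 CPM in CD4 T, 5223 and 3527 CPM in CD8 T and 5458 and 4124 CPM in B cells (log2 0.56, 0.57 and 0.40). It stayed under the 1.5-fold rule. Its partner mt-Co3 had 4538 and 4705 CPM in CD4 T cells (-0.05), and mt-Co2 had 2637 and 2371 CPM (0.15), so the 3 subunits of 1 enzyme differed in ratio within a gate. In regulatory T cells mt-Co1 was at 5555 and 3551 CPM and mt-Co3 at 4279 and 4613 CPM, the same order. mt-Cytb, the only mitochondrial gene of complex III, was lower in the allogeneic library, with 1550 and 2154 CPM in CD4 T cells (-0.47), 1603 and 2253 CPM in CD8 T cells (-0.49) and 2141 and 2620 CPM in B cells (-0.29). mt-Nd4 was also lower, at log2 -0.29, -0.24 and -0.28.

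**Figure D3:**
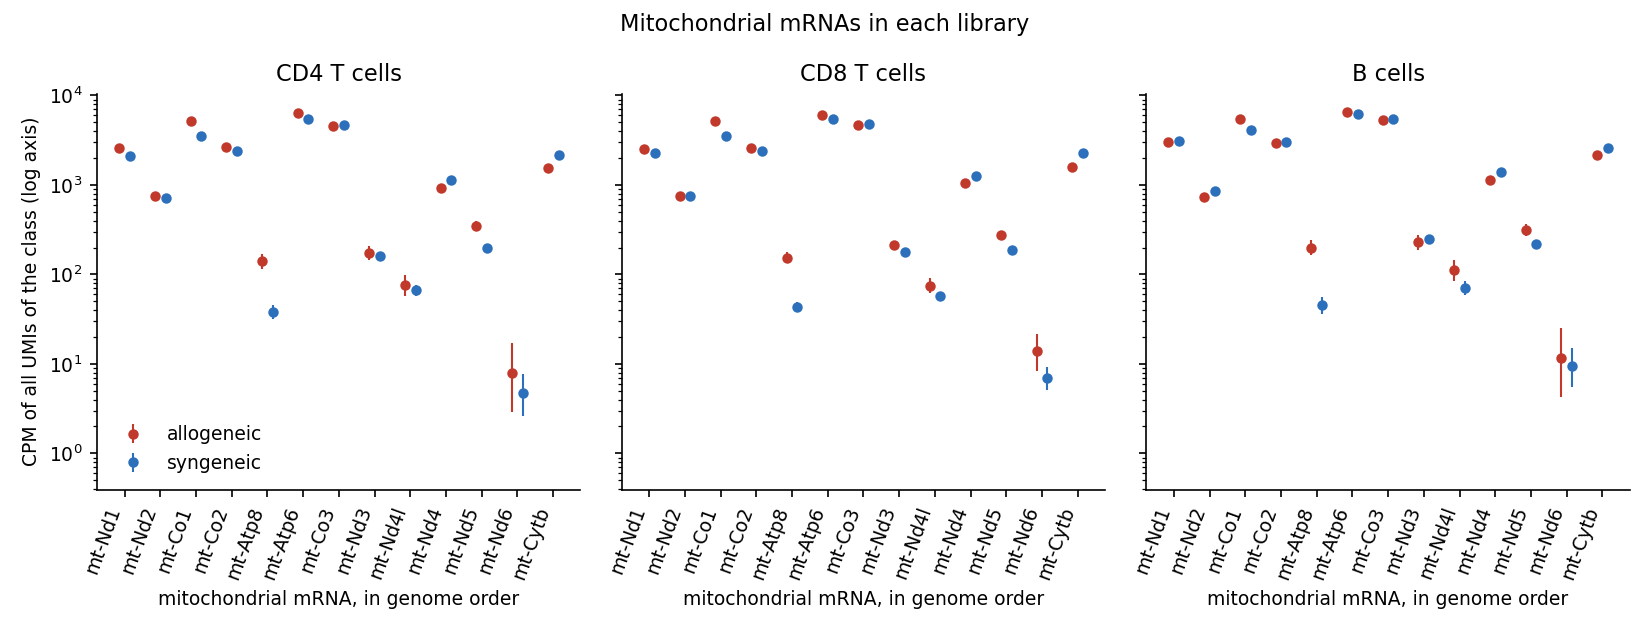
CPM (log axis) of the 13 mitochondrial mRNAs in genome order in 3 gates; dots are allogeneic (red) and syngeneic (blue) libraries and lines are exact 95% counting intervals. mt-Atp8 (141 and 38.4 CPM in CD4 T cells) and mt-Co1 (5174 and 3515 CPM) are higher in the allogeneic library in each panel, and mt-Cytb (1550 and 2154 CPM) lower.

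Complex I genes of the mitochondrion were mixed. mt-Nd5, a proton-pumping subunit, had 347 and 199 CPM in CD4 T cells (0.80, 0.59 to 1.01, counted as higher), 274 and 187 CPM in CD8 T cells (0.55) and 313 and 221 CPM in B cells (0.50). mt-Nd4l was counted as higher in B cells alone, from 58 and 127 UMIs (0.66, 0.19 to 1.12), and not at syngeneic depth or with wider gates. mt-Nd6, the only gene of the 13 that lies on the other strand, was counted as higher in CD8 T cells from 19 and 45 UMIs (0.99, 0.14 to 1.79), a call lost with stricter gates, and had fewer than 50 UMIs in the other 2 gates. It overlaps mt-Nd5 by 14 bases on the opposite strand, and the sources used here do not say whether the counting used strand. With mt-Atp8, 2 of 12 measured mitochondrial members were counted as higher in CD4 T, 2 of 13 in CD8 T and 2 of 12 in B cells, and none as lower. These shares are close to those of all genes (12.4%, 12.1% and 15.5%).

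The makeup of the mitochondrial pool in barcodes that failed the cell filter was set beside that in kept cells. mt-Atp8 made up 0.611% of mitochondrial UMIs in kept allogeneic cells, 0.303% in allogeneic barcodes with fewer than 200 genes and 0.389% in those above the mitochondrial limit, against 0.202% in kept syngeneic cells. For mt-Co1 these shares were 21.2%, 19.2%, 19.9% and 15.2%. For mt-Cytb they were 6.48%, 7.30%, 6.94% and 9.63%. All 3 kinds of allogeneic barcode thus lay on the same side of the syngeneic cells for each of these genes, and the kept cells lay farthest each time. That pattern did not hold for every mitochondrial gene. For mt-Nd5 the shares in the same order were 1.06%, 0.682%, 0.946% and 0.846%, on both sides of the syngeneic cells. For mt-Nd2 (2.74%, 2.21%, 2.33% and 3.17%) and mt-Co3 (18.3%, 17.6%, 18.2% and 20.6%) the kept allogeneic cells lay nearest to the syngeneic cells.

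Annotated mRNA length moved with the ratios of nuclear members in the T cell gates but not in B cells. Of the 80 nuclear members measured in CD4 T cells, 66 were in the shortest of 3 equal classes of genes by mRNA length. Their median log2 ratio was -0.28, and that of the other genes in that class was -0.07, against 0.17 in the longest class. In CD8 T cells the values were -0.21 for 70 members, -0.09 for other short genes and 0.09 for the longest class. In B cells they were -0.44 for 66 members, -0.19 and 0.19. Short genes as a whole were thus lower in the allogeneic library, and the members lay lower still by median. Of the short members, 11 of 66 in CD4 T, 3 of 70 in CD8 T and 21 of 66 in B cells were counted as lower. Among other short genes the shares counted as lower were 14.7%, 12.7% and 20.5%. The CD4 T count was thus close to that of other short genes, and the CD8 T count was below it. The part of length in the result was not tested. Across other genes the rank correlation of ratio with length was 0.17, 0.13 and 0.23, and across nuclear members 0.28, 0.20 and 0.01, where genes share both libraries and are not independent.

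**Figure D4:**
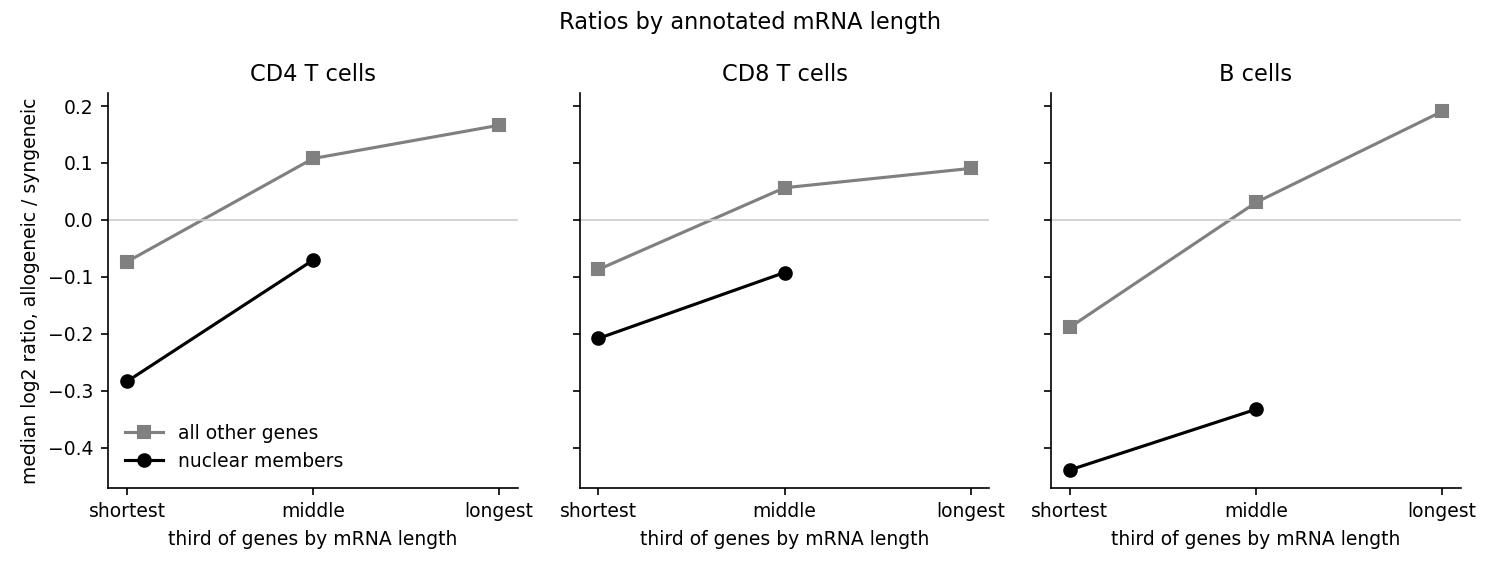
Median log2 ratio of CPM, allogeneic over syngeneic, of nuclear members (black) and of all other measured genes (grey) by class of annotated mRNA length (3 equal classes) in 3 gates; points of fewer than 10 members are not drawn. In the shortest class, members lie at -0.28, -0.21 and -0.44 and other genes at -0.07, -0.09 and -0.19.

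Other mitochondrial genes were counted by fixed lists in the same gates, to be read against the shares of all genes counted as lower (9.37%, 8.50% and 14.0%) and higher (12.4%, 12.1% and 15.5%). Mitochondrial ribosomal proteins, which translate the 13 mRNAs, had median log2 ratios of -0.22, -0.16 and -0.40 in CD4 T, CD8 T and B cells, with 17 of 74, 11 of 75 and 20 of 71 counted as lower and none as higher. Assembly factors outside the rule had medians of -0.16, -0.24 and -0.47, with 7 of 29, 5 of 36 and 5 of 22 lower and 4, 5 and 2 higher, Sdhaf1 among the higher in each gate. Carriers and channels had medians of -0.23, -0.28 and -0.43, with Slc25a4, the ADP/ATP carrier, among 2 of 8 lower in CD4 T and in B cells, and Tspo higher in B cells. Enzymes of the tricarboxylic acid cycle had medians of -0.07, -0.17 and -0.15, with 1, 2 and 1 of 16 lower. Genes of mitochondrial transcription and biogenesis were at 0.19, 0.11 and 0.13, with Nrf1 and Mterf3 higher in CD4 T cells, Ppargc1b and Mterf1a higher in CD8 T cells and Slirp lower in B cells. Glycolysis genes were at 0.09 and -0.04 in T cells, where Pgk1 was counted as higher in both gates, and at -0.48 in B cells, where all 11 measured lay below the median gene and 5 were lower. Genes of these lists were named after their values were seen.

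Cell types were next compared within each library. B cells had a larger mitochondrial share than CD4 T cells in both libraries (log2 0.16 allogeneic, 0.27 syngeneic). The nuclear share of B cells was lower than that of CD4 T cells in the allogeneic library (-0.17) and close to it in the syngeneic library (-0.01, -0.03 to 0.00). By the 1.5-fold rule in both libraries, Atp5sl, which the rule matches by name although it is no ATP synthase subunit, was higher in B cells (71.0 and 34.5 CPM allogeneic, 104 and 36.2 CPM syngeneic; background 8.72%). Ndufv3, an accessory subunit of complex I, was lower in B cells (129 and 203 CPM allogeneic, 173 and 258 CPM syngeneic; background 9.21%). Both were named after their values were seen. No member was counted between CD8 T and CD4 T cells (background 1.52% higher, 1.28% lower) or between regulatory T and CD4 T cells (1.77% and 1.22%) in both libraries. Regulatory T cells had nuclear shares of 1.84% and 2.34% and mitochondrial shares of 2.40% and 2.23%, allogeneic before syngeneic, the same order as in the other T cells.

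Cells with germinal centre or cycling markers had the highest nuclear shares among lymphocyte gates of the syngeneic library and lower mitochondrial shares than the cells they were set against. The 38 syngeneic germinal centre B cells had 2.95% nuclear and 2.49% mitochondrial UMIs, against 2.12% and 2.73% in 393 other B cells (log2 0.47 and -0.13). The 33 cycling T cells had 2.86% and 1.99%, against 2.09% and 2.31% in 2473 T cells without cycling UMIs (0.45 and -0.22). Mitochondrial UMIs per nuclear UMI were thus 0.844 and 1.29 in the B cell pair and 0.696 and 1.10 in the T cell pair. With 5 and 6 such cells in the allogeneic library, no value is given there. Both gates are deeper than the cells they are set against, with medians of 7000 and 4097 UMIs in the B cell pair and 8934 and 4576 in the T cell pair. Within the same range of UMIs the nuclear log2 ratios were 0.31 in both pairs, from 18 and 47 B cells and from 17 and 191 T cells. The mitochondrial ratios in that range were -0.08 in the B cell pair and -0.22 in the T cell pair. With wider gates the T cell value was -0.18, and -0.06 within 1 range of UMIs.

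In germinal centre B cells 20 of 79 measured nuclear members were higher (background 13.7%) and Atp5sl was lower (background 10.7%). By complex the summed log2 ratios were 0.40 for I, 0.56 for II, 0.39 for III, 0.56 for IV and 0.51 for V. Sdhb had 306 and 149 CPM (1.04, 0.69 to 1.38). Atp5g3 had 495 and 245 CPM, Atp5b 1012 and 565 CPM and Cox6a1 678 and 354 CPM. In cycling T cells 19 of 84 were higher (background 11.6%) and 2 lower, Cox7a2l and Ndufaf4 (background 6.08%). Cox5a, a matrix-side subunit of complex IV, had 571 and 283 CPM (1.01, 0.80 to 1.22), and Atp5g3 had 524 and 268 CPM (0.97). Cox7a2l, a factor that links complexes III and IV into supercomplexes, fell from 845 to 563 CPM (-0.59). Genes in this paragraph were named after their values were seen. With wider gates (164 and 153 cells) the counts were 29 of 84 (background 17.7%) and 50 of 87 (background 21.1%).

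**Figure D5:**
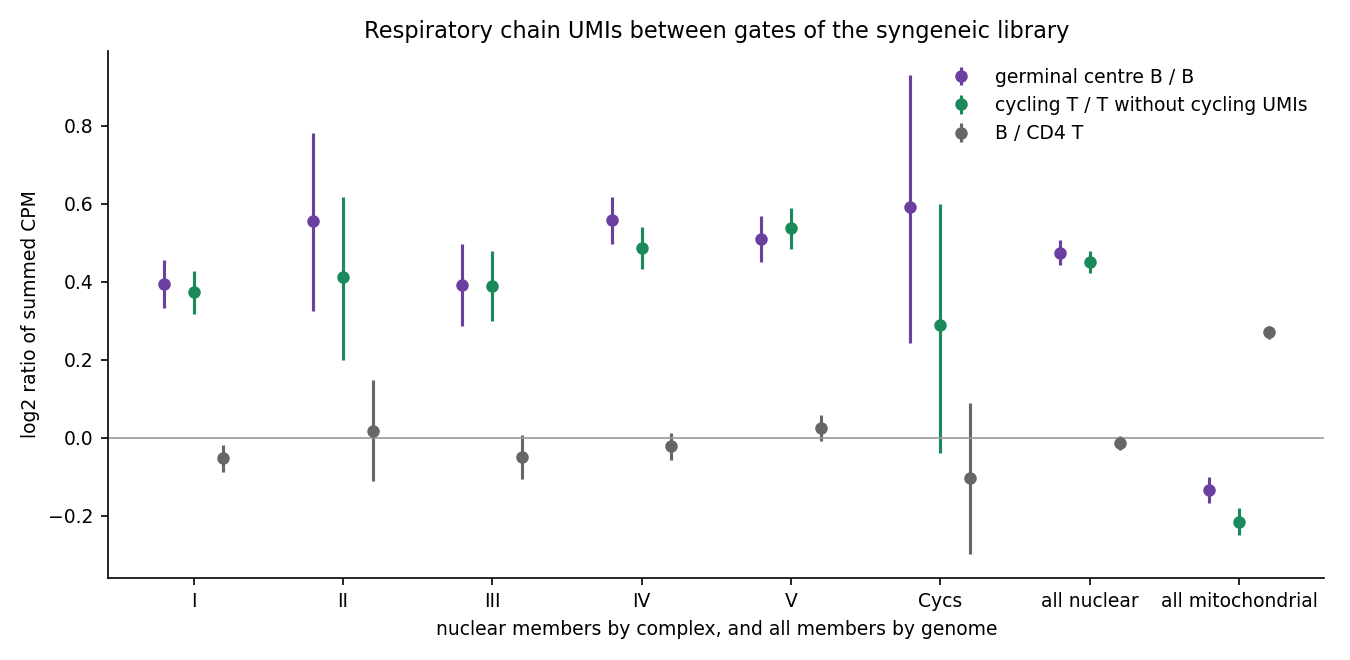
Log2 ratio of summed CPM between gates of the syngeneic library for nuclear members by complex, Cycs alone, all nuclear and all mitochondrial members; lines are exact 95% counting intervals. All nuclear members lie at 0.47 (germinal centre B over B) and 0.45 (cycling T over T without cycling UMIs), and mitochondrial members at -0.13 and -0.22, while B over CD4 T is at -0.01 and 0.27.

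Apart from the wider gates, non-lymphocyte gates reached 20 cells in the allogeneic library only. The 61 neutrophil-gated cells had 0.965% mitochondrial and 1.73% nuclear UMIs when summed, with per-cell medians of 1.52% and 1.82%. The 74 erythroid-gated barcodes, with 92.5% haemoglobin UMIs, had 0.157% and 0.117%. The 22 macrophage-gated cells had 3.02% and 2.78%, at a median of 497.5 UMIs per cell. With wider gates, 23 dendritic cells of the syngeneic library had 2.02% and 2.15%.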

How the data were processed

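For each library the authors deposited a matrix of UMI counts per gene and barcode, whole numbers that were not normalised, made with a Chromium 3′ v3 kit per the labels' protocols. Cell Ranger 2.2.0, STAR, Seurat 2.3.4 and mm10 stand in the submitters' processing notes without a stated role. The sources used here do not say how the deposited barcodes were chosen. The gene list had 27998 entries and 27933 symbols, and counts of the 56 symbols with several entries were summed.

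Counts were summed per library and marker gate and scaled to CPM over the gate's whole UMI total, with exact Poisson 95% intervals (Python 3.11.15, SciPy 1.17.1). These sums were 754154 and 3203814 UMIs in CD4 T, 1368676 and 6442126 in CD8 T, and 521275 and 1804432 in B cells, allogeneic before syngeneic. No p-value was made, since cells of 1 library are no replicates. The ratio and its call rule were tested on simulated data. A planned ratio for regulatory T cells was not made, because the gate held fewer than 100 cells in each library. The T cell gates needed at least 2 UMIs of Cd3d, Cd3e and Cd3g and none of the B cell genes, and B cells at least 3 UMIs summed over a fixed list of B cell markers, among them Cd79a, Cd79b and Ms4a1, and none of the T cell genes. Doublets were treated only by these opposite-lineage rules and, as an alternative, by leaving out the 5% of cells with most UMIs. Wider gates, leaving out shared barcodes, and a common range of UMIs for germinal centre B and cycling T cells were alternatives chosen after seeing the data.

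Named were all 13 mitochondrial genes, the 3 nuclear genes with most CPM in each complex, the 3 highest and 3 lowest nuclear ratios in each gate and families with tissue forms. Genes named outside that rule, among them those called lower in B cells, were chosen after their values were seen. The members and lists were chosen with earlier results of these data known. Positions and lengths are from GENCODE M21 (GRCm38).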

Additional observations from a re-analysis of the deposited data

Results flagged for a closer look

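In the allogeneic library 323 barcodes with at least 200 genes were left out for more than 10% mitochondrial UMIs, and mitochondrial members made up 19.2% of their UMIs, against 2.18% in kept allogeneic cells. Nuclear members made up 0.731% of UMIs in these barcodes and 1.64% in kept cells. They had a median of 507 UMIs. The syngeneic library had 10 barcodes over that limit, with 17.6% mitochondrial and 1.78% nuclear UMIs and a median of 4699.5 UMIs. This signal lies outside the comparisons, which use kept cells only.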

How the results depend on the processing

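No paired analysis was possible because each group had 1 library. The median nuclear ratio kept its direction in all 12 alternatives in each gate. It also stayed within the interval of its middle member, but that is the wide counting interval of 1 gene, so staying inside it checks little. Those intervals were -0.54 to 0.004 in CD4 T, -0.45 to 0.05 in CD8 T and -0.68 to -0.22 in B cells. They included 0 in both T cell gates. The mitochondrial sum stayed above 0 in its 11 but moved outside its interval in several. With each cell weighted equally it was 0.26 in CD4 T, 0.18 in CD8 T and 0.073 in B cells. At syngeneic depth it was 0.030, 0.062 and 0.090. By median-of-ratios scaling it was 0.092 in CD4 T and 0.098 in CD8 T cells, without the mitochondrial filter 0.15 in CD8 T and 0.10 in B cells, with a 5% limit 0.099 in CD8 T cells, without the 5% of cells with most UMIs 0.18 in CD4 T cells, and with wider gates 0.12 in CD4 T cells. At syngeneic depth 7 of 79 nuclear members were lower in CD4 T (background 6.93%) and 6 of 79 in B cells (background 3.52%), from fewer cells. Reversed were mitochondrial complex I at that depth in CD4 T (-0.079) and B cells (0.011), Cycs in B cells, alone and as the cytochrome c group (0.014), Ndufa6 in B cells (-0.10), Cox4i1 in CD4 T cells with stricter gates (0.029) and mt-Co3 in CD8 T cells with each cell weighted equally (0.012); the cause was not tested. Atp5o, one of the ATP synthase members lower in B cells, was at 0.079 at that depth. Of 1419 values of named members under alternatives, 4 were of opposite sign. The depth limits B cells most, with 14 allogeneic cells at syngeneic depth.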
